A study of Danio rerio with 9 samples.

Results

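Nucleotide synthesis and one-carbon metabolism were followed in zebrafish Müller glia (MG) by RNAseq, through a list of 36 gene symbols for enzymes that make deoxynucleotides, pyrimidines, purines, serine and folate-bound carbon units. Of these symbols, 34 matched the count table and gave 37 of its 23707 gene IDs, and *cmpk1* and *prps1a* had no match. All 37 IDs passed the filter on low counts. They comprised 9 IDs for deoxynucleotide (dNTP) supply, 6 for pyrimidine ribonucleotides, 11 for purines and 11 for serine and folate enzymes. Members were chosen by pathway, not by level or change, though with earlier results of these data known. The symbols *rrm2*, *ctps1*, *impdh1* and *mthfd1* were each carried by a pair of IDs, called copy 1 and copy 2 here in ID order, and *ctps1a* and *ctps1b* of the list shared a pair. For *impdh1* and *mthfd1* the list names only *impdh1b* and *mthfd1b*, so a copy in each of these pairs may be a gene outside the list. Which copy is which named zebrafish gene was not assigned, and reads may have been divided between similar copies.

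MG were sorted as GFP+ cells from pooled retinas of adult male and female *gfap:GFP* fish, in which the *gfap* promoter drives GFP in MG and in the progenitors they give rise to. There were 3 groups with 3 libraries each: Wt fish without injury, Wt fish at 2 days post injury (dpi), and *mych* mutant (mych-/-) fish at 2 dpi, where injury was a set of needle pokes into the retina. All 3 groups carried the *gfap:GFP* transgene, and no uninjured mutant group was sequenced, so a genotype difference that precedes injury and one in the injury response cannot be told apart. The mutant line came from editing with a single guide against the second exon of *mych*, a Myc family transcription factor, and carries a frameshift. The guide is shown because it defines the mutant group, with the 18 bases that its template oligonucleotide carries ahead of the scaffold.
mych guide: ggagactgaggcggtgtg

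Dividing cells need dNTPs in quantity. Ribonucleotide reductase converts ribonucleotides to deoxynucleotides, thymidylate synthase makes thymidylate with a folate-bound carbon, and dihydrofolate reductase regenerates that folate. Purine rings are built stepwise on phosphoribosyl pyrophosphate with carbons from formyl-folate, pyrimidine rings are built before the sugar is attached, and serine is the main donor of the carbon units. In the injured zebrafish retina, MG re-enter the cell cycle and give rise to progenitors, and Myc proteins are known activators of many of these genes in mammalian cells.

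Levels are given as CPM, read counts divided by a library's scaled total, and values for a group are in the order of replicates 1, 2 and 3. Library totals ran from 46835977 to 77133615 counts. The *mych* transcript averaged 19.0 ± 7.5 CPM (SD, n = 3) in the uninjured group, 244 ± 70.0 CPM in the Wt 2 dpi group and 167 ± 26.9 CPM in the mutant group, a genotype log2 fold change of -0.55 (SE 0.30, adjusted p 0.335). A frameshift need not lower a transcript, so this level does not check the labels. None of the 10 Müller glia marker IDs was at 0 in every library. Their summed levels were 8579 to 14085 CPM in uninjured, 14470 to 24114 CPM in Wt 2 dpi and 12659 to 33974 CPM in mutant libraries. In the same groups *apoeb* alone averaged 3218, 12125 and 13542 CPM, and *glula* copy 1 averaged 4788, 2732 and 3553 CPM. Rod markers summed to 14977 to 29481 CPM, 1141 to 3446 CPM and 1374 to 3021 CPM in these groups, and 11 of the 14 tested fell with injury in Wt MG. Cone markers summed to 39877 to 63990 CPM, 12631 to 23465 CPM and 16741 to 24248 CPM, and 9 of 10 fell. Over all genes tested, 19.8% fell. The 13 dividing-cell marker IDs summed to 60.3 to 87.3 CPM in uninjured, 2653 to 3672 CPM in Wt 2 dpi and 1137 to 2096 CPM in mutant libraries. In sorted bulk RNA, fewer cells of a type and less RNA per cell cannot be told apart.

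Transcripts of most of the enzymes were higher after injury. Of the 37 IDs, 30 rose and 1 fell in Wt 2 dpi relative to uninjured MG. A change counts as called when the adjusted p-value does not exceed 0.05 and the log2 fold change is beyond 0.5 in size. Over all 20484 genes tested, 22.3% were called higher and 19.8% lower. The median log2 fold change of the 37 was 2.51, beside -0.02 over all genes. Between genotypes at 2 dpi, 9 IDs were lower in mutant MG and 0 higher, beside 1.33% of all genes called lower and 0.366% called higher. The median was -0.81 (all genes 0.03), and 34 of the 37 log2 fold changes were negative, beside 47.9% over all genes. Of the 37, 21 had an unadjusted p-value under 0.05, all of them negative, beside 3976 of 20484 genes in either direction. DESeq2 also called 0 of the 37 higher. Both comparisons use the same Wt 2 dpi libraries. In 23 of the 37 IDs all mutant libraries lay below all Wt 2 dpi libraries, as did 14.5% of all genes.

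Markers of inner retinal neurons and of ganglion cells leaned the other way between the same genotypes. Inner retinal neuron markers had a median genotype log2 fold change of 1.05 (14 of 15 positive) and summed to 1168 to 2812 CPM in Wt and 2200 to 4514 CPM in mutant libraries at 2 dpi. Retinal ganglion cell markers had a median of 0.95 (8 of 10 positive) and summed to 262 to 328 CPM and 332 to 540 CPM, without overlap. edgeR called 0 of the 15 and 0 of the 10, with 8 and 5 unadjusted p-values under 0.05, and DESeq2 called 1 and 0 higher. Over all genes, 3976 of 20484 had such a p-value and DESeq2 called 1802 of 23378 in either direction. The ID of *nefma* is in both lists. Rod and cone markers had genotype medians of -0.11 (6 of 14 positive) and 0.03 (5 of 10 positive). Medians were 0.11 for Müller glia (6 of 10 positive), -0.10 for microglia and macrophages (4 of 9) and 0.27 for endothelial cells (4 of 7). They were -1.40 for pigment epithelium (1 of 8) and 1.74 for red blood cells (3 of 3). The part of any of these cells in the lower level of the enzyme transcripts, or in their rise with injury, was not tested.

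**Figure D1:**
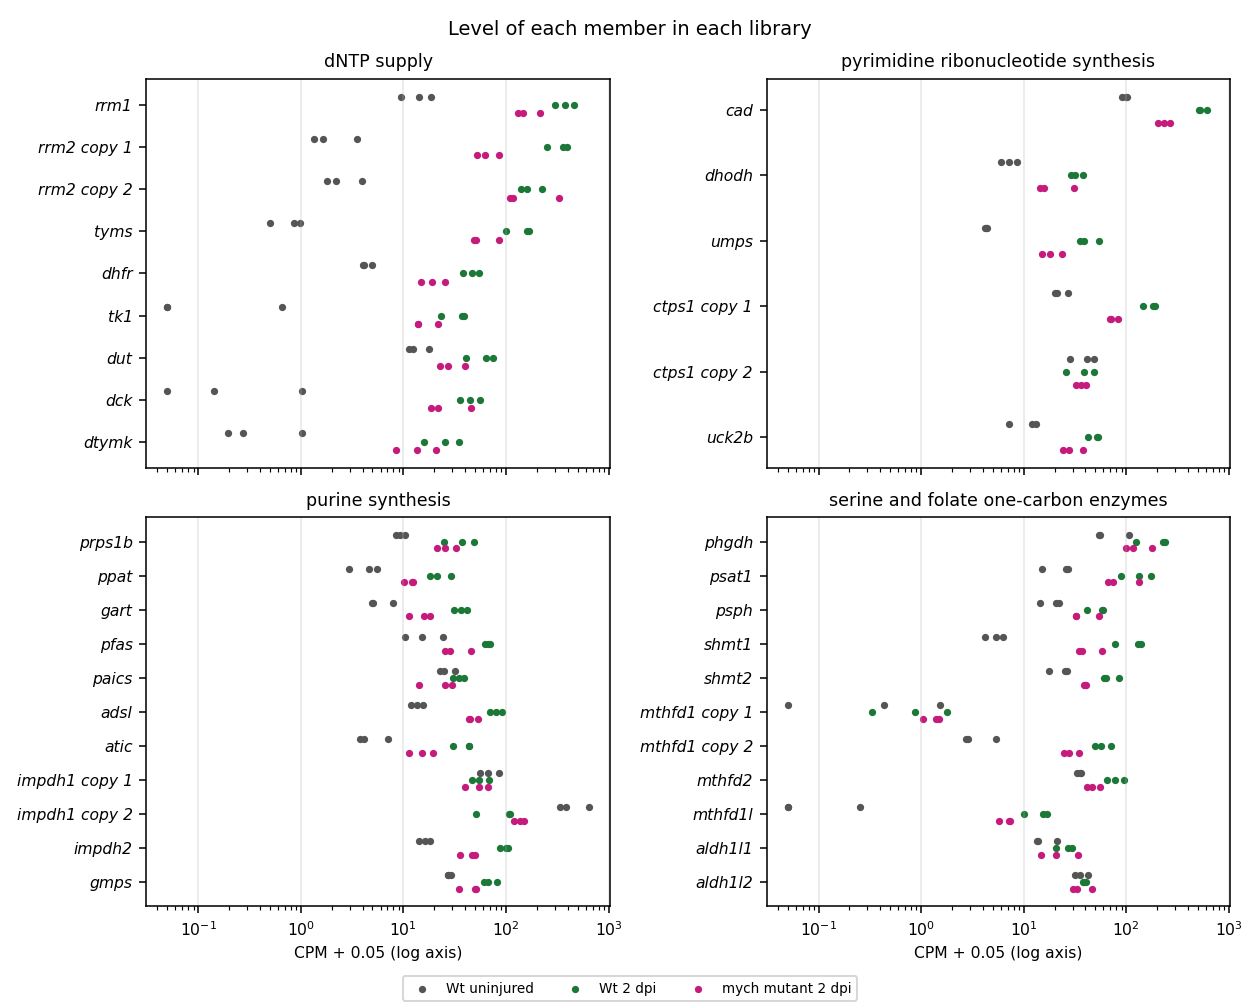
Level of each of the 37 gene IDs in each of the 9 libraries, as CPM + 0.05 on a log axis, in 4 panels by pathway. Grey points are Wt uninjured, green Wt 2 dpi and magenta *mych* mutant 2 dpi libraries, and for *cad* or *impdh2* the magenta points lie between grey and green with no overlap.

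Of the 4 pathways, dNTP supply had the highest median change with injury. All 9 IDs were called higher, with a median log2 fold change of 6.06, and their summed level went from 30.0 to 43.5 CPM in uninjured libraries to 951 to 1457 CPM at 2 dpi. In mutant MG at 2 dpi the sum was 448 to 847 CPM, and *rrm2* copy 1 and *dhfr* were called lower.

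*rrm1*, the large catalytic subunit of ribonucleotide reductase, stood at 18.5, 9.52 and 14 CPM in uninjured, 304, 465 and 373 CPM in Wt 2 dpi and 131, 216 and 147 CPM in mutant libraries. The 3 groups did not overlap. It rose by 4.76 on the log2 scale with injury (SE 0.32, adjusted p 1.10e-06), and the genotype log2 fold change of -1.21 (SE 0.28, adjusted p 0.0525) just missed the threshold.

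*rrm2* encodes the small subunit, which holds the radical needed for the reaction and is made mainly in S phase in mammalian cells. Copy 1 (ENSDARG00000020711) stood at 1.61, 1.31 and 3.46 CPM in uninjured, 253, 357 and 395 CPM in Wt 2 dpi and 85.0, 62.5 and 51.9 CPM in mutant libraries. Every mutant library lay far below every Wt 2 dpi library, and the mutant mean was 19.8% of the Wt mean, the lowest such share among the 37 IDs. The injury log2 fold change was 7.29 (SE 0.43, adjusted p 5.50e-07) and that between genotypes -2.33 (SE 0.34, adjusted p 0.0140). Copy 2 (ENSDARG00000078069) stood at 3.93, 1.76 and 2.17 CPM in uninjured, 140, 227 and 161 CPM in Wt 2 dpi and 110, 328 and 117 CPM in mutant libraries. Here mutant replicate 2 was the highest of all 9 libraries while the other mutant libraries were below all Wt 2 dpi libraries, and the groups overlapped. Copy 2 rose with injury by 6.06 (SE 0.52, adjusted p 6.77e-06) and had a genotype log2 fold change of 0.07 (SE 0.42, adjusted p 0.956), which was -0.63 (adjusted p 0.266) without mutant replicate 2. Of the reads of both copies, copy 1 took 61.2% to 71.0% in Wt 2 dpi libraries and 16.0% to 43.6% in mutant libraries, with no overlap. With the counts of both copies added, an alternative chosen after seeing the data, the genotype log2 fold change was -1.02 (SE 0.33, adjusted p 0.127) and *rrm2* was no longer called.

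*dhfr*, which reduces dihydrofolate to tetrahydrofolate, stood at 4.89, 4.09 and 3.97 CPM in uninjured, 37.9, 46.8 and 54.6 CPM in Wt 2 dpi and 18.8, 25.6 and 14.9 CPM in mutant libraries. No groups overlapped, and the mutant mean was 42.6% of the Wt mean at 2 dpi. The log2 fold change was 3.43 with injury (SE 0.27, adjusted p 3.12e-06) and -1.23 between genotypes (SE 0.25, adjusted p 0.0394).

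Thymidylate genes were near absent from uninjured MG. *tyms*, thymidylate synthase, went from 0.732 ± 0.256 to 142 ± 36.0 CPM with injury (log2 fold change 7.61, SE 0.40) and stood at 61.9 ± 21.2 CPM in mutant MG. Its genotype log2 fold change was -1.20 (SE 0.30, adjusted p 0.0642), with all mutant libraries below all Wt 2 dpi libraries but without a call. *tk1*, the cytosolic thymidine kinase of the salvage route, had 0 counts in uninjured replicates 1 and 2 and averaged 33.4 ± 8.90 CPM in Wt and 16.4 ± 4.58 CPM in mutant MG at 2 dpi. *dtymk*, thymidylate kinase, averaged 0.448 ± 0.461, 25.4 ± 9.57 and 14.2 ± 6.19 CPM in the 3 groups. *dck*, deoxycytidine kinase, had 0 counts in uninjured replicate 2 and went from 0.355 ± 0.537 to 45.5 ± 10.4 CPM, with 28.6 ± 14.8 CPM in mutant MG. *dut*, which hydrolyses dUTP and so keeps uracil out of DNA, had the smallest rise of the pathway, from 13.8 ± 3.33 to 59.9 ± 17.5 CPM (log2 fold change 2.12, SE 0.30), with 29.7 ± 8.82 CPM in mutant MG. Mutant and Wt 2 dpi libraries overlapped for *dck* and *dtymk* and not for *tk1* and *dut*, and the genotype difference of these 4 genes was not called (adjusted p 0.0924 to 0.668).

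**Figure D2:**
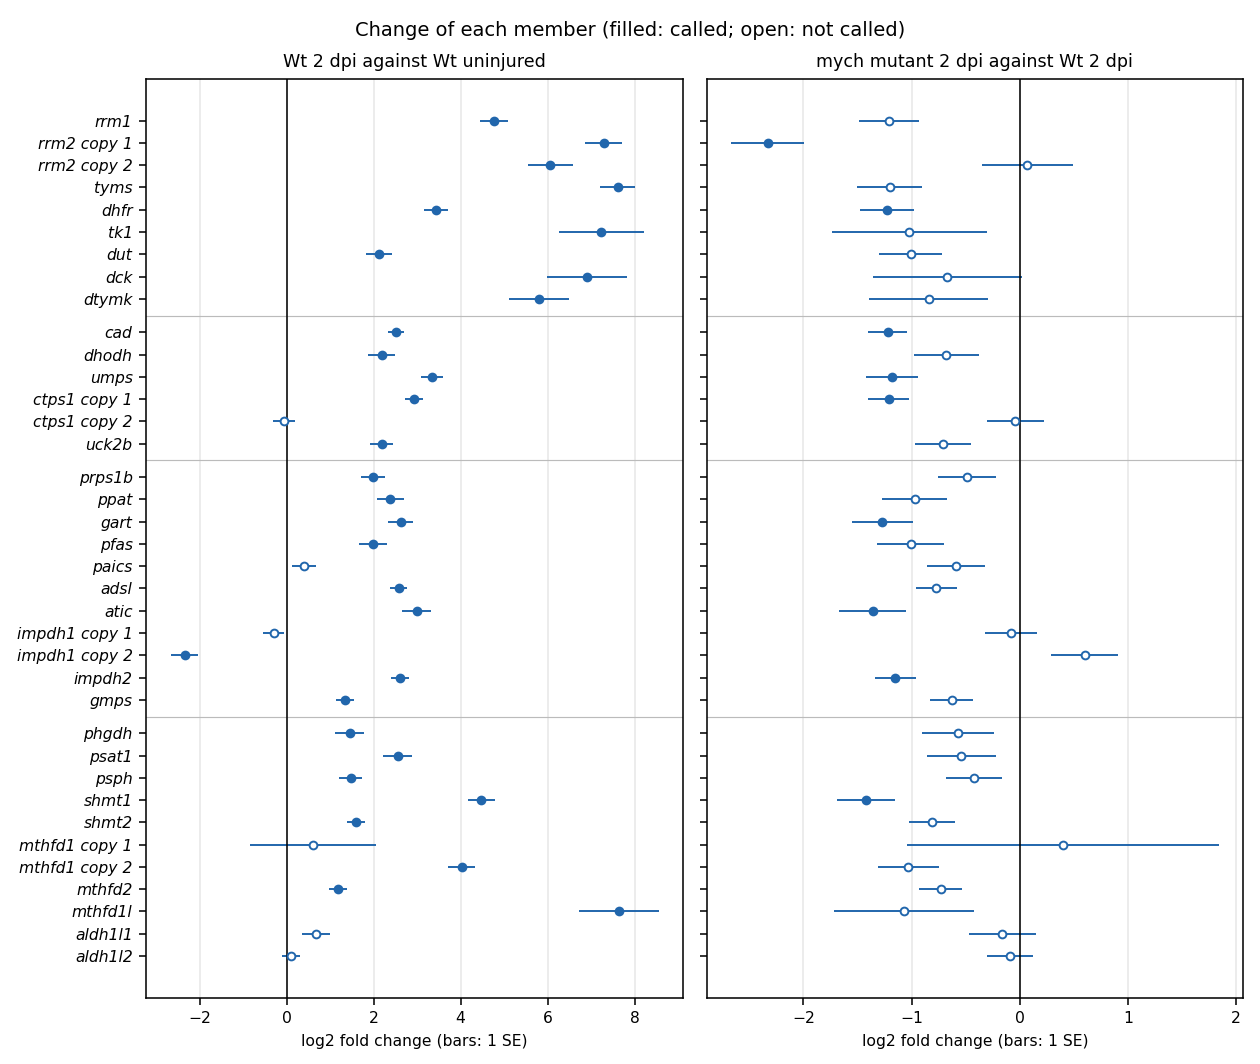
Log2 fold change of each gene ID with injury in Wt MG (left) and between genotypes at 2 dpi (right), with bars of 1 SE and filled points for called changes. Nearly all points lie right of 0 on the left (30 called higher) and left of 0 on the right (9 called lower), with *rrm2* copy 1 at -2.33 the farthest.

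Pyrimidine ribonucleotide synthesis rose with injury in 5 of 6 IDs (median log2 fold change 2.34), and 3 of the 6 were lower in mutant MG at 2 dpi (median -0.94). Summed levels were 163 to 193 CPM in uninjured, 805 to 983 CPM in Wt 2 dpi and 370 to 475 CPM in mutant libraries, without overlap.

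*cad* encodes the enzyme that carries out the first steps of the pathway, up to dihydroorotate. It stood at 98.6, 102 and 90.6 CPM in uninjured, 524, 617 and 511 CPM in Wt 2 dpi and 206, 267 and 236 CPM in mutant libraries. Each group was tight and apart from the others, and mutant MG held 42.9% of the Wt level. The log2 fold change was 2.51 with injury (SE 0.19, adjusted p 2.10e-06) and -1.22 between genotypes (SE 0.18, adjusted p 0.0140).

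*umps*, which completes UMP, stood at 4.39, 4.14 and 4.21 CPM in uninjured, 38.6, 54.5 and 35.6 CPM in Wt 2 dpi and 15.2, 23.5 and 18.2 CPM in mutant libraries. All 3 groups were apart. It rose by 3.34 with injury (SE 0.26, adjusted p 3.10e-06) and the genotype log2 fold change was -1.18 (SE 0.24, adjusted p 0.0403).

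CTP synthase converts UTP to CTP, and its copies differed. *ctps1* copy 1 (ENSDARG00000030700) stood at 20.9, 20.1 and 27.0 CPM in uninjured, 146, 190 and 184 CPM in Wt 2 dpi and 70.0, 83.7 and 71.2 CPM in mutant libraries. It rose by 2.93 with injury (SE 0.20, adjusted p 1.26e-06) and was lower in mutant MG, at -1.21 (SE 0.19, adjusted p 0.0184), with no overlap among groups. *ctps1* copy 2 (ENSDARG00000098386) stood at 41.1, 48.1 and 28.4 CPM, 25.7, 38.5 and 48.6 CPM, and 36.5, 32.2 and 40.7 CPM in the same groups. These libraries overlapped throughout, with log2 fold changes of -0.06 (SE 0.26, adjusted p 0.878) and -0.04 (SE 0.26, adjusted p 0.959), whose signs changed under some alternatives. Copy 1 thus took 29.5% to 48.7% of the reads of both copies in uninjured, 79.1% to 85.0% in Wt 2 dpi and 63.6% to 72.2% in mutant libraries. With both copies added, *ctps1* was still called in both comparisons (1.77, adjusted p 1.90e-05, and -0.92, adjusted p 0.0361).

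*dhodh*, the mitochondrial enzyme that oxidises dihydroorotate, rose from 7.21 ± 1.28 to 32.7 ± 4.51 CPM and stood at 20.4 ± 9.17 CPM in mutant MG. *uck2b*, a uridine-cytidine kinase of the salvage route, rose from 10.7 ± 3.22 to 48.8 ± 5.95 CPM and stood at 29.9 ± 6.85 CPM. Neither genotype difference was called (adjusted p 0.242 and 0.171). RefSeq gives *cmpk1* as another name of *cmpk*, UMP-CMP kinase, which the matching rule did not reach and which is not counted. It rose from 42.2 ± 5.26 to 130 ± 14.5 CPM and stood at 74.1 ± 13.1 CPM in mutant MG (genotype log2 fold change -0.81, SE 0.19, adjusted p 0.0559).

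Purine synthesis had 8 IDs that rose and 1 that fell with injury among 11, with a median log2 fold change of 1.99. Between genotypes 3 of the 11, *gart*, *atic* and *impdh2*, were called lower (median -0.77). The summed level of the pathway was 538 to 828 CPM in uninjured, 604 to 651 CPM in Wt 2 dpi and 438 to 460 CPM in mutant libraries, and *impdh1* copy 2 alone held 336 to 644 CPM of the uninjured sums.

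On the route to IMP, *gart* and *atic* rose with injury and were called lower in mutant MG. *gart*, which catalyses 3 of those steps including a transfer of formyl-folate carbon, stood at 4.91, 4.97 and 7.85 CPM in uninjured, 30.8, 36.3 and 42.0 CPM in Wt 2 dpi and 15.9, 18.2 and 11.2 CPM in mutant libraries. It rose by 2.62 with injury (SE 0.29, adjusted p 3.06e-05) and its genotype log2 fold change was -1.27 (SE 0.28, adjusted p 0.0441). *atic*, which adds the last formyl carbon and closes the ring, stood at 3.69, 4.04 and 7.04 CPM, 30.6, 43.2 and 43.5 CPM, and 11.3, 19.3 and 15.2 CPM. The groups of neither gene overlapped. For *atic* the log2 fold change was 2.99 with injury (SE 0.33, adjusted p 2.84e-05) and -1.36 between genotypes (SE 0.31, adjusted p 0.0497), the call closest to the threshold. Over 18 alternative fits, the genotype call held in 9 for *gart* and in 6 for *atic*. *ppat*, *pfas* and *adsl* of the same route also had negative genotype log2 fold changes (-0.97, -1.01 and -0.77), without a call.

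IMP dehydrogenase leads from IMP towards GMP, and its 3 IDs went different ways. *impdh2*, in mammals the form induced in proliferating cells, stood at 18.2, 14.1 and 16.2 CPM in uninjured, 87.9, 105 and 101 CPM in Wt 2 dpi and 35.4, 46.6 and 50.4 CPM in mutant libraries. It rose by 2.60 (SE 0.20, adjusted p 3.00e-06) and was lower in mutant MG, at -1.15 (SE 0.19, adjusted p 0.0217), with no overlap. *impdh1* copy 2 (ENSDARG00000042336) stood at 388, 644 and 336 CPM in uninjured, 108, 51.1 and 109 CPM in Wt 2 dpi and 137, 121 and 149 CPM in mutant libraries. It was the only ID of the 37 called lower with injury, by 2.35 on the log2 scale (SE 0.32, adjusted p 1.47e-04). All its mutant libraries lay above all Wt 2 dpi libraries without a call (0.60, SE 0.31, adjusted p 0.310). Whether this copy is the listed *impdh1b* was not assigned. In mammals IMPDH1 is the form that photoreceptors use, and both rod and cone markers fell with injury (median log2 fold change -3.20 over the 14 rod IDs tested and -1.41 over the 10 cone IDs, 0 of the 15 rod and 0 of the 10 cone IDs at 0 in every library). Like copy 2, the cone sum was highest in uninjured replicate 2 (63990 CPM) and lowest in Wt 2 dpi replicate 2 (12631 CPM), whereas the rod sum was highest in uninjured replicate 1 (29481 CPM) and lowest in Wt 2 dpi replicate 2 (1141 CPM). Among mutant libraries copy 2 was highest in replicate 3, where the cone sum was lowest (16741 CPM) and the rod sum highest (3021 CPM). The part of the photoreceptor signal in the fall of copy 2 was not tested. *impdh1* copy 1 (ENSDARG00000029524) stood at 85.4, 66.9 and 55.8 CPM, 68.2, 54.2 and 46.4 CPM, and 66.2, 39.9 and 54.1 CPM in uninjured, Wt 2 dpi and mutant libraries. These overlapped, with log2 fold changes of -0.30 (SE 0.24, adjusted p 0.345) and -0.08 (SE 0.24, adjusted p 0.918).

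The other purine genes rose with injury except *paics*. *prps1b*, which makes phosphoribosyl pyrophosphate, rose from 9.30 ± 1.04 to 37.0 ± 12 CPM, and *ppat*, the committing step, from 4.35 ± 1.31 to 22.6 ± 5.59 CPM. *pfas* rose from 16.7 ± 7.21 to 66.6 ± 3.26 CPM, *adsl* from 13.6 ± 1.91 to 80.7 ± 11.2 CPM and *gmps*, which makes GMP, from 27.6 ± 1.21 to 70.0 ± 11 CPM. *pfas* and *adsl* act between *ppat* and IMP. *paics*, another enzyme of that stretch, had 26.4 ± 4.82 CPM in uninjured and 34.9 ± 4.38 CPM in Wt 2 dpi MG (log2 fold change 0.40, SE 0.27, adjusted p 0.266), and these libraries overlapped. In mutant MG the 6 genes stood at 49.7% (*pfas*) to 71.4% (*prps1b*) of the Wt mean at 2 dpi, with adjusted p-values of 0.0625 (*adsl*) to 0.343 (*prps1b*) and no call. For all but *prps1b*, every mutant library lay below every Wt 2 dpi library.

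**Figure D3:**
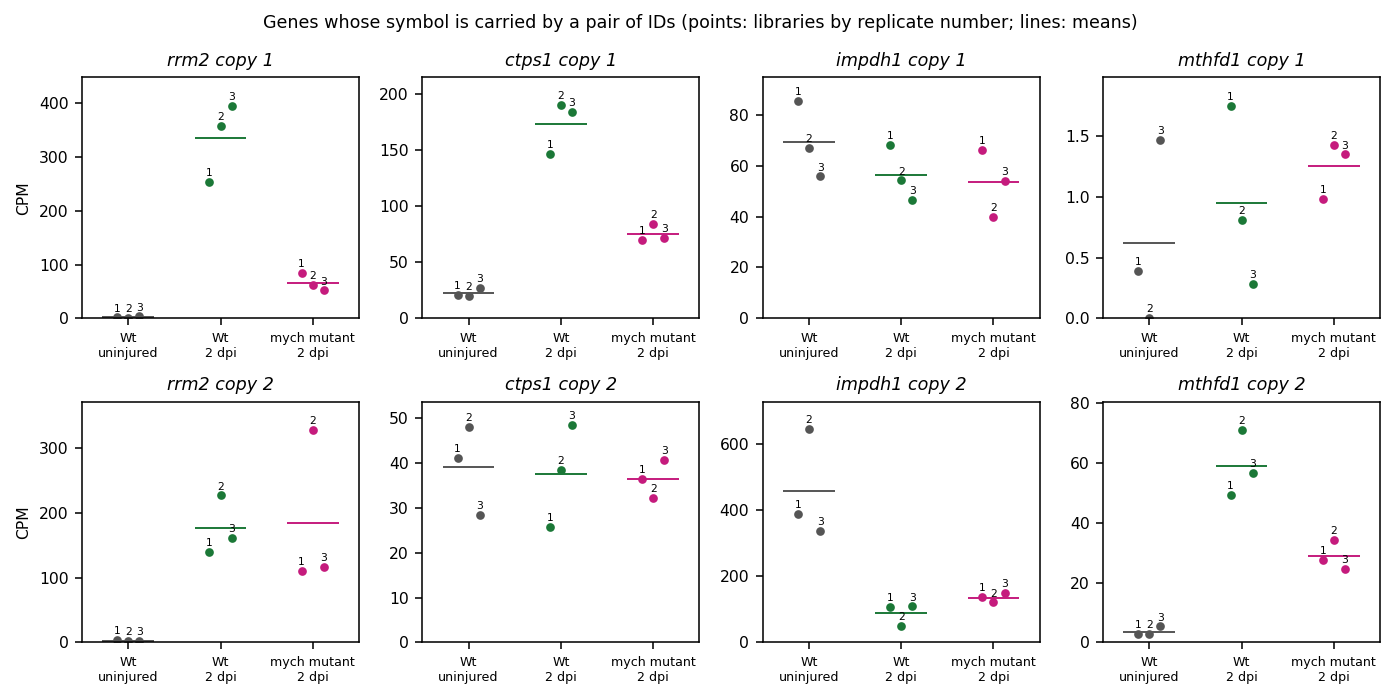
CPM of both copies of *rrm2*, *ctps1*, *impdh1* and *mthfd1* in each library, with points numbered by replicate, lines at group means and a separate linear axis in each panel. Copy 1 of *rrm2* and *ctps1* is lower in all mutant than in all Wt 2 dpi libraries, copy 2 overlaps, and mutant replicate 2 stands apart at 328 CPM for *rrm2* copy 2.

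Serine and folate enzymes rose with injury in 8 of 11 IDs (median log2 fold change 1.47). Only *shmt1* of the 11 was called lower in mutant MG (median -0.57). The summed level was 199 to 290 CPM in uninjured, 587 to 897 CPM in Wt 2 dpi and 402 to 627 CPM in mutant libraries, so here the sums of Wt replicate 1 and mutant replicate 2 crossed.

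*phgdh* takes the first step from glycolysis to serine. It stood at 54.8, 55.8 and 106 CPM in uninjured, 125, 237 and 227 CPM in Wt 2 dpi and 117, 179 and 100 CPM in mutant libraries. The rise of 1.45 (SE 0.33, adjusted p 0.00452) was called and the genotype difference was not (-0.57, SE 0.33, adjusted p 0.364), with mutant replicate 2 above Wt replicate 1. *psat1*, the next enzyme, stood at 25.6, 15.2 and 27.0 CPM, 88.7, 133 and 176 CPM, and 67.0, 132 and 74.4 CPM in the same groups. It rose by 2.55 (SE 0.34, adjusted p 1.31e-04), and mutant and Wt 2 dpi libraries overlapped (-0.54, SE 0.32, adjusted p 0.383). *psph*, the last step to serine, rose from 19.1 ± 4.11 to 53.0 ± 10.1 CPM and stood at 39.7 ± 12.5 CPM in mutant MG (adjusted p 0.413).

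Serine hydroxymethyltransferase splits serine into glycine and a folate-bound carbon, in the cytosol (*shmt1*) and in mitochondria (*shmt2*). *shmt1* stood at 6.18, 4.12 and 5.33 CPM in uninjured, 77.9, 129 and 140 CPM in Wt 2 dpi and 37.4, 57.5 and 34.8 CPM in mutant libraries. No groups overlapped. It rose by 4.47 (SE 0.31, adjusted p 1.45e-06), and its genotype log2 fold change of -1.42 (SE 0.27, adjusted p 0.0353) left 37.3% of the Wt level. *shmt2* rose less, from 23.0 ± 4.70 to 69.4 ± 13.1 CPM (1.59, SE 0.21), and stood at 39.6 ± 0.873 CPM in mutant MG, below all Wt 2 dpi libraries but not called (-0.81, SE 0.21, adjusted p 0.0707). The share of *shmt1* in the reads of both genes went from 17.6% to 19.0% in uninjured to 55.3% to 69.8% in Wt 2 dpi libraries, and was 46.2% to 59.2% in mutant libraries.

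Folate-bound carbon is then oxidised or reduced by the MTHFD enzymes. *mthfd1* copy 2 (ENSDARG00000040492), for the cytosolic enzyme, rose from 3.63 ± 1.5 to 59.0 ± 11.1 CPM (4.02, SE 0.32, adjusted p 3.08e-06) and stood at 28.8 ± 5.02 CPM in mutant MG (-1.03, SE 0.28, adjusted p 0.0807). Copy 1 (ENSDARG00000018266) was at or under 1.75 CPM in every library, and its overlapping values gave SEs of 1.45 and 1.44. *mthfd1l*, a mitochondrial formyl-folate synthetase, had 0 counts in uninjured replicates 2 and 3 and 0.203 CPM in replicate 1, against 14.1 ± 3.55 CPM in Wt and 6.69 ± 0.829 CPM in mutant MG at 2 dpi. *mthfd2*, the mitochondrial dehydrogenase-cyclohydrolase, rose from 34.9 ± 1.74 to 79.2 ± 15.5 CPM and stood at 47.6 ± 7.5 CPM in mutant MG (-0.73, SE 0.20, adjusted p 0.0760). The formyl-folate dehydrogenases, which turn formyl-folate back to tetrahydrofolate, were not called in either comparison. *aldh1l1*, the cytosolic form and an astrocyte marker in mammals, averaged 16.0 ± 4.22, 25.8 ± 4.84 and 23.1 ± 9.78 CPM in the 3 groups, and *aldh1l2*, the mitochondrial form, 36.3 ± 5.43, 39.0 ± 1.54 and 36.7 ± 8.79 CPM.

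Mutant MG at 2 dpi were still far from uninjured MG. In that comparison, where injury and genotype differ together, 28 of the 37 IDs were higher and 1 was lower, with a median log2 fold change of 1.48, against 16.3% of all genes called higher and 9.53% lower. All 9 dNTP IDs were higher (median 4.97), and *impdh1* copy 2 was the lower one (-1.75, SE 0.32, adjusted p 0.00174). *phgdh* (0.87, SE 0.33, adjusted p 0.0735) and *mthfd2* (0.45, SE 0.20, adjusted p 0.117) rose with injury in Wt MG and were not called here. For these 2 genes the difference between both comparisons is the genotype contrast above, which was not called.

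Within the groups at 2 dpi, the same libraries were low or high for the enzymes and for the dividing-cell markers. Wt 2 dpi replicate 1 was the lowest of its group in 27 of the 37 IDs, and mutant replicate 2 the highest of its group in 26 of 37. Over all genes, Wt 2 dpi replicate 1 was the lowest in 35.4% and mutant replicate 2 the highest in 35.4%. Their dividing-cell sums, 2653 and 2096 CPM, were also the lowest and the highest of their groups. With injury 12 of the 13 dividing-cell IDs rose, beside 22.3% of all genes. Between genotypes 12 of the 13 were negative (median -1.0), and 10 had an unadjusted p-value under 0.05. Over all genes, 47.9% were negative and 3976 of 20484 had such a p-value. edgeR called 2 and DESeq2 8 lower in mutant MG. Of all genes, edgeR called 1.33% lower and DESeq2 called 1802 of 23378 in either direction. Markers of other cells differed in the same libraries. Wt 2 dpi replicate 1 had the lowest Müller glia sum of its group (14470 CPM) and the highest rod (3446 CPM), inner neuron (2812 CPM) and pigment epithelium (386 CPM) sums. Mutant replicate 2 had the highest Müller glia sum (33974 CPM) and the lowest rod (1374 CPM) and inner neuron (2200 CPM) sums of its group. Of these Müller glia sums, *apoeb* alone held 7934 CPM in Wt 2 dpi replicate 1 and 21686 CPM in mutant replicate 2. The part of these cells in the members' levels was not tested. How much of the genotype difference goes with the number of dividing cells was not tested.

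**Figure D4:**
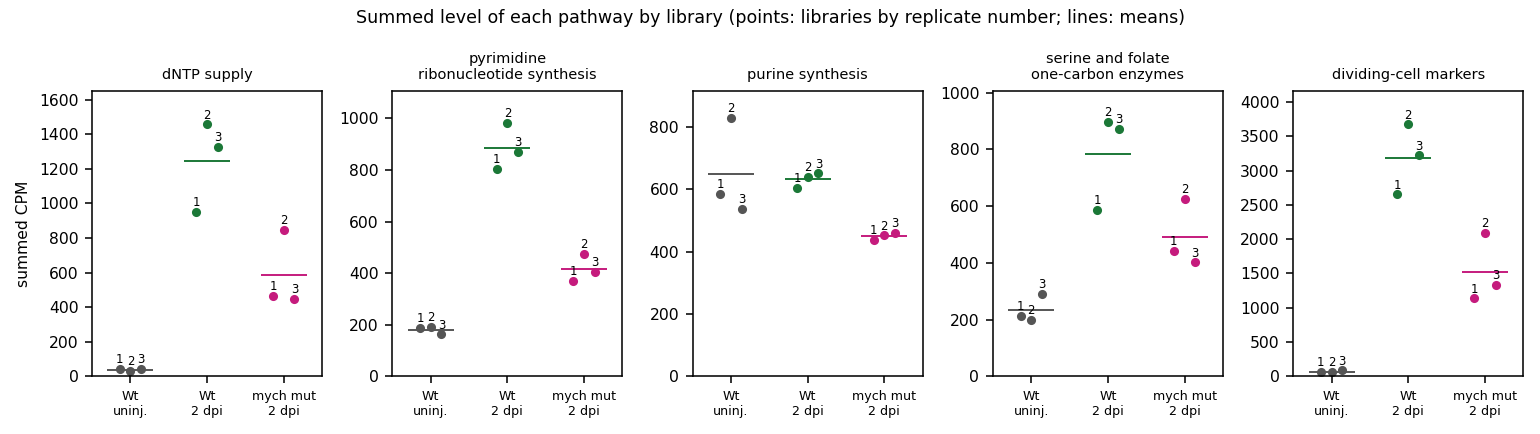
Summed CPM of each pathway and of the dividing-cell markers in each library, with points numbered by replicate, lines at group means and axes from 0. At 2 dpi Wt replicate 1 is the lowest Wt point and mutant replicate 2 the highest mutant point for dNTP supply and for the dividing-cell markers, where the sums still do not overlap.

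The injury calls were the same 31 IDs under all 20 alternatives with IDs kept apart, but the 9 genotype calls depended on single libraries. Leaving out Wt 2 dpi replicate 2, mutant replicate 1 or mutant replicate 3 left 0 calls, with 20, 20 and 19 unadjusted p-values under 0.05, and leaving out Wt 2 dpi replicate 3 left 1, *cad*. How many genes in all had such a p-value in these fits was not counted. Over all genes, the 3 fits with 0 member calls had 8, 9 and 28 genotype calls in place of 347, and the fit with 1 had 53. Counts over all genes here are of calls in either direction, whereas every member call was lower in mutant MG. Without Wt 2 dpi replicate 1 there were 14, and without mutant replicate 2 there were 16, each including the 9. Those fits had 982 and 1026 genotype calls over all genes. Leaving out uninjured replicate 1 or 2, which are not in this contrast but share its fit, left 5 each (168 and 164 over all genes). The median genotype log2 fold change of the 37 IDs ran from -1.01 to -0.67 when single libraries were left out. DESeq2 called 19, beside 1802 of 23378 genes, and upper quartile scaling 5, beside 221 of 20484 genes. Over 18 alternative fits, *cad* was called in 15, *rrm2* copy 1, *ctps1* copy 1 and *impdh2* in 14, *shmt1* in 13, *dhfr* and *gart* in 9, *umps* in 7 and *atic* in 6, and the sign was negative in every one of them.

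**Figure D5:**
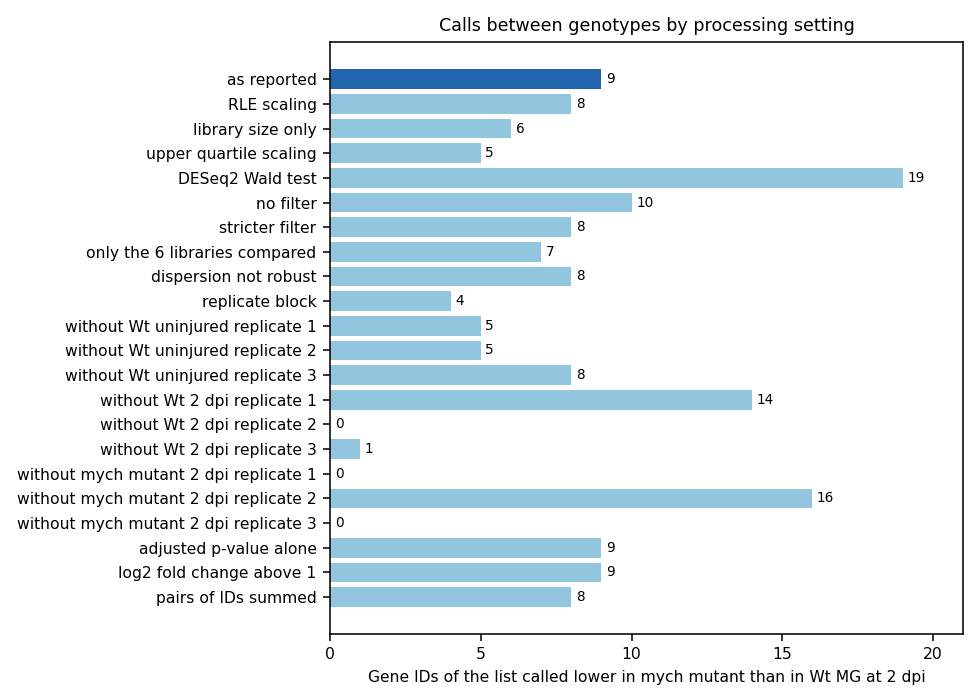
Number of the 37 gene IDs called lower in *mych* mutant than in Wt MG at 2 dpi under each processing setting, as bars from 0, with the reported setting in dark blue. The count of 9 ran from 0, when Wt replicate 2 or mutant replicate 1 or 3 was left out, to 19 with DESeq2. Over all genes, calls in either direction numbered 8, 9 and 28 in those fits and 1802 with DESeq2.

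Neighbouring genes of nucleotide and folate metabolism, 81 tested IDs outside the list, were examined beside it. With injury 26 rose (32.1%) and 10 fell (12.3%), beside 22.3% and 19.8% of all genes (median log2 fold change 0.68). Between genotypes edgeR called 3 lower (3.7%) and 0 higher, beside 1.33% and 0.366% of all genes. The median was -0.29, and 17 had an unadjusted p-value under 0.05, a share near that of all genes (3976 of 20484). DESeq2 called 6 lower and 5 higher, beside 1802 of 23378 genes called in either direction. Where a symbol had a pair of IDs, these are again called copy 1 and copy 2 in ID order. Other dNTP genes rose in 8 (44.4%) and fell in 1 (5.56%) of 18. Of these, *dctd*, which deaminates dCMP towards thymidylate, had 0 counts in all uninjured libraries and at 2 dpi was at least 242-fold higher in Wt libraries (14.1 ± 3.78 CPM), against a floor of 3 counts per library. *nme4*, a mitochondrial nucleoside diphosphate kinase, was likewise at 0 and at least 27.4-fold higher against the same floor. The copies of *guk1*, guanylate kinase, went opposite ways with injury. Copy 1 (ENSDARG00000005776) fell from 399 ± 77.1 to 213 ± 77.9 CPM (-0.91, SE 0.27, adjusted p 0.0171) and copy 2 (ENSDARG00000030340) rose from 76.9 ± 9.45 to 140 ± 15.1 CPM (0.87, SE 0.17, adjusted p 0.00182). *rrm2b*, singled out after its values were seen, is the reductase subunit that p53 induces in mammals. It stood at 28.3, 30.5 and 24 CPM in uninjured and 21.3, 17.5 and 19.3 CPM in Wt 2 dpi libraries. These were apart but not called (-0.51, SE 0.20, adjusted p 0.0547). Mutant libraries held 28.2, 34.2 and 29.7 CPM, apart from Wt 2 dpi libraries but not called (0.67, SE 0.20, adjusted p 0.103). Mutant and uninjured libraries overlapped (0.15, SE 0.20, adjusted p 0.632).

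Of 35 salvage and breakdown IDs, 6 rose (17.1%) and 7 fell (20%) with injury, shares near those of all genes (22.3% and 19.8%). Between genotypes 0 were called by edgeR. An unadjusted p-value under 0.05 was found for 8, a share near that of all genes (3976 of 20484). DESeq2 called 3, all higher, beside 1802 of 23378 genes in either direction. *gmpr2*, GMP reductase, rose from 28 ± 6.41 to 75.5 ± 4.06 CPM and *prpsap2*, a partner of PRPP synthetase, from 28 ± 2.56 to 68.7 ± 13.9 CPM. Of the AMP deaminases *ampd3* and *ampd2*, each with a pair of IDs, copy 1 fell by 2.48 (SE 0.54, adjusted p 0.00296) and 1.88 (SE 0.42, adjusted p 0.00364) on the log2 scale. Copy 2 was not called for either, at -0.25 (SE 2.15, adjusted p 0.941) and -0.76 (SE 0.37, adjusted p 0.12), with overlapping libraries.

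Other folate and one-carbon genes rose in 12 (42.9%) and fell in 2 (7.14%) of 28, beside 22.3% and 19.8% of all genes. *cbsa*, which draws homocysteine towards cysteine, rose from 0.811 ± 0.878 to 32.7 ± 6.44 CPM, and *srr*, serine racemase, from 0.333 ± 0.298 to 5.49 ± 1.55 CPM. The other *cbs* gene of the list, *cbsb*, stood at 49.6 ± 2.13 CPM in uninjured and 46.7 ± 7.84 CPM in Wt 2 dpi MG. Its libraries overlapped and its change was not called (-0.09, SE 0.18, adjusted p 0.747). The copies of *slc25a32*, a mitochondrial folate carrier, went opposite ways. Copy 1 (ENSDARG00000026835) rose from 6.86 ± 1.94 to 37.6 ± 7.6 CPM (2.46, SE 0.28, adjusted p 3.63e-05) and copy 2 (ENSDARG00000089791) fell from 45.7 ± 13.6 to 13.1 ± 5.39 CPM (-1.80, SE 0.35, adjusted p 0.00142). *ahcyl1* fell from 151 ± 28.6 to 67.1 ± 18.9 CPM. Between genotypes DESeq2 called 4 lower and 1 higher, beside 1802 of 23378 genes in either direction. The 2 that edgeR called (7.14%, beside 1.33% of all genes called lower) were both lower in mutant MG. *ahcy*, which clears S-adenosylhomocysteine left by methylation, stood at 21.1, 17.8 and 16.6 CPM in uninjured, 244, 333 and 288 CPM in Wt 2 dpi and 76.1, 132 and 82.0 CPM in mutant libraries, with no overlap (-1.58, SE 0.24, adjusted p 0.0144). *fpgs*, which adds the glutamate tail that keeps folates in the cell, stood at 17.4, 18.9 and 28.6 CPM in uninjured libraries. It stood at 53.3, 79.7 and 61.4 CPM in Wt and 23.7, 37.2 and 25.9 CPM in mutant libraries at 2 dpi (-1.16, SE 0.26, adjusted p 0.0490). It rose with injury in Wt MG (1.58, SE 0.26, adjusted p 5.65e-04), while mutant and uninjured libraries overlapped (0.42, SE 0.26, adjusted p 0.269).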

How the data were processed

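The authors deposited 1 table of read counts per Ensembl gene for the 9 libraries, with no normalization. Per the study's methods, reads of polyA RNA were mapped to the zebrafish genome GRCz11. The submitters' processing notes name cutadapt 2.3, FastQC 0.11.8, STAR 2.7.8a, RSEM 1.3.3 and DESeq2. Those notes also list a human genome build beside GRCz11. RSEM estimates counts, so the whole numbers in the table may be rounded estimates. The annotation release and use of strand are not given in the sources used here. Copies and overlapping or antisense genes are therefore uncertain. Group and replicate were taken from the sample labels, which do not say whether replicates came from separate pools of fish, so p-values measure only the spread between these samples.

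Symbols were matched to the names table without regard to case and then without a final a or b. The tests used edgeR 4.0.16 under R 4.3.3, with filterByExpr by group (20484 genes), TMM scaling, 1 robust quasi-likelihood fit of the 9 libraries, and Benjamini-Hochberg adjustment over all genes tested. Calls used the study's thresholds of 0.05 and 0.5. Its threshold on FPKM was not applied. The SE is the log2 fold change over the square root of F. With 46835977 to 77133615 counts per library, the spread between replicates (common biological coefficient of variation 62.2%), more than counting, limited the precision. Floors of 3 counts cover counting error only. The fit was tested on simulated data with less spread between replicates than these data. Only the injury contrast was examined there, so the simulation does not check the genotype calls.

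The members and the lists of neighbouring and marker genes were chosen with earlier results of these data known. Values per library are given for members called between genotypes and for the 3 members of each pathway with the highest mean CPM, and neighbouring genes are named where called between genotypes or among the 2 largest called rises and falls with injury in each list. The other ID of a neighbouring pair, and *cbsb*, were added after their values were seen. Of the neighbouring symbols, 11 had no match. The values of 1 neighbouring gene that the rule names are not reported here. Alternatives were other scalings, DESeq2 1.42.0, other filters and thresholds, fits of the 6 libraries of a contrast alone, a non-robust dispersion, a replicate block and leaving out each library. Figures were drawn with matplotlib 3.10.9 in Python 3.11.15, with tables handled in pandas 2.3.3.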

Additional observations from a re-analysis of the deposited data

How the results depend on the processing

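With injury, the count of 31 called IDs kept the same genes under all 20 alternatives that kept the IDs apart, including each library left out (31 to 31), and was 30 of 33 with the pairs of copies summed, an alternative chosen after seeing the data. Against uninjured MG, the mutant count of 29 ran from 25 to 30 when single libraries were left out and from 26 to 31 under the other settings. Between genotypes, the count of 9 was 5 with upper quartile scaling, 19 with DESeq2 and 0 to 16 when single libraries were left out. Over all genes, the count of 347 in either direction was 221, 1802 and 8 to 1026 in the same settings. Replicate numbers did not pair the libraries (r of same-numbered deviations -0.0754 to 0.0899 over 9 pairs). The replicate block left 4 genotype calls, beside 111 over all genes in either direction.

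Signs changed only for log2 fold changes that were not called. With library size only, *ctps1* copy 2 gave 0.06 between genotypes and 0.06 for mutant against uninjured MG, and *impdh1* copy 1 gave 0.01 between genotypes. Upper quartile scaling gave -0.02 for *aldh1l2* in mutant against uninjured MG, and the replicate block gave -0.03 for *rrm2* copy 2 between genotypes. When single libraries were left out, the injury change of *ctps1* copy 2 ran from -0.29 to 0.15 and that of *mthfd1* copy 1 from -0.18 to 2.25. The genotype change ran from -0.63 to 0.34 for *rrm2* copy 2, -0.25 to 0.19 for *ctps1* copy 2, -0.26 to 0.10 for *impdh1* copy 1, -0.03 to 1.20 for *mthfd1* copy 1, -0.54 to 0.11 for *aldh1l1* and -0.30 to 0.06 for *aldh1l2*. For mutant against uninjured MG it ran from -0.28 to 0.08 for *ctps1* copy 2, -0.41 to 0.07 for *paics* and -0.19 to 0.16 for *aldh1l2*. The causes were not tested.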
